A study of Mus musculus with 18 samples.

Results

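The genes of histone H3 lysine 9 methylation and of the HP1 proteins were followed in mouse B-cell lymphomas that lack Suv39h1: Suv39h2, Cbx5, Cbx1, Cbx3, Setdb1, Trim28, Ehmt1, Ehmt2 and Atrx. These 9 genes were chosen by name, out of 18194 genes that had a probe set of a single gene symbol. Each was read on the probe set whose mean over the 17 arrays was the highest for that gene. All 9 were among the 11897 genes tested. Suv39h1 itself had no probe set under its own symbol alone and was not analysed here.

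The cells were primary B-cell lymphomas from lymph nodes of Emu-myc mice, in which the oncogene Myc is driven in B cells, in a C57/Bl6 background. Every culture, untreated ones included, was null for Suv39h1 and carried 2 retroviral genes: Bcl2, which blocks apoptosis, and a Suv39h1-ERT2 fusion whose activity depends on 4-hydroxytamoxifen (4-OHT). The cells were treated in culture with Adriamycin (ADR, or doxorubicin), which breaks DNA. Lymphomas 4146, 4936 and 5043 were each sampled on day 5 of ADR plus 4-OHT (ADR+4-OHT 5 d, n = 3) and on day 5 of ADR alone (ADR 5 d, n = 3). Cultures kept for 14 further days without either compound gave the outgrowths: big cells (n = 3) and small cells (n = 3), sorted by flow cytometry after ADR with 4-OHT, and cells after ADR alone, with no sorting given in the labels (ADR outgrowth, n = 2). Untreated cultures were the baseline (n = 3). The array of the ADR outgrowth of 5043 is labelled as having failed quality control and held no values. No group received 4-OHT without ADR, and Suv39h1 activity was not measured on these arrays, so effects of the fusion protein and of 4-OHT itself cannot be told apart. The replicates are 3 primary lymphomas.

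Methylation of lysine 9 of histone H3 marks silent chromatin. SUV39H1 and its sister enzyme SUV39H2 place the trimethyl mark at pericentric repeats, and G9a (Ehmt2) and GLP (Ehmt1) form a heterodimer that places the mono- and dimethyl marks in euchromatin. SETDB1 is brought to retroelements by KAP1 (Trim28). HP1 alpha (Cbx5), HP1 beta (Cbx1) and HP1 gamma (Cbx3) bind the methylated lysine through a chromodomain and bind SUV39 enzymes in turn, and ATRX is a remodeller that deposits histone H3.3 in heterochromatin. In Emu-myc lymphomas, Suv39h1 is known as a gene that therapy-induced senescence depends on.

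Values are log2 signals on which 1 unit is a 2-fold difference, and a probe set's level cannot be set against that of another. Differences in level between lymphomas had been taken out of the deposited values, so SDs and overlaps of groups leave them out. Of the 7 B-cell markers with a probe set, 6 lay at or above 4.86, the median of all values, on all 17 arrays, and Ms4a1 did on 15. That level does not separate cell types: the T-cell markers Cd4 and Cd8a also reached it on all 17 arrays. Of the other T-cell markers, Cd3d reached it on 10 arrays, Cd3e on 6 and Cd3g on 1. The arrays ADR 5 d of 4936, big outgrowth of 5043 and small outgrowth of 5043 stood apart, with leading component scores of 66.8, 66.3 and 58.5 against at most 5.94 on any other array. On them Xist, which coats the inactive X, exceeded the median of its lymphoma by 5.70, 5.99 and 5.80, whereas on the ADR+4-OHT array of 4146 it was at -3.49. These are called the 4 arrays with deviant Xist. Whether they come from the animals they are labelled with was not tested, so the differences within lymphomas that involve them rest on the labels. On the big outgrowth arrays of 4146 and 4936 Xist was also above the lymphoma median, by 1.58 and 2.72, and on the other 11 arrays it lay between -0.72 and 0.46. Fewer cells of a type and less RNA per cell cannot be told apart in such cultures.

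Promoter windows from RefSeq on GRCm38.p6, 250 bases before to 50 after the start, are shown for Suv39h2, Cbx5 and Cbx1, because these 3 genes varied together over the arrays. Capitals mark the words found in a search of both strands. Suv39h2 lies at chr2:3474937-3475236 (minus strand), Cbx5 at chr15:103239803-103240102 (minus strand) and Cbx1 at chr11:96788885-96789184 (plus strand).
Suv39h2: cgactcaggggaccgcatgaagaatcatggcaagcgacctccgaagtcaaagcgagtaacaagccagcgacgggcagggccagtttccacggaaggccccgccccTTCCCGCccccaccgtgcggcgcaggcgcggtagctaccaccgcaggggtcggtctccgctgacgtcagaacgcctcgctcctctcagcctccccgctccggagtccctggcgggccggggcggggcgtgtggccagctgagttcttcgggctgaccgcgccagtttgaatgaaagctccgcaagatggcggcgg
Cbx5: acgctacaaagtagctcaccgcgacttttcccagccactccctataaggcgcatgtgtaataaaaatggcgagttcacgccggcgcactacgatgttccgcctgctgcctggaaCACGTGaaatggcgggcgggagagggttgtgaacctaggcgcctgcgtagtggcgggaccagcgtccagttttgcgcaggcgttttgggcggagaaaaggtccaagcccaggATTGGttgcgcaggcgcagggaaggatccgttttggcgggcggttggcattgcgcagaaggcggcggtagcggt
Cbx1: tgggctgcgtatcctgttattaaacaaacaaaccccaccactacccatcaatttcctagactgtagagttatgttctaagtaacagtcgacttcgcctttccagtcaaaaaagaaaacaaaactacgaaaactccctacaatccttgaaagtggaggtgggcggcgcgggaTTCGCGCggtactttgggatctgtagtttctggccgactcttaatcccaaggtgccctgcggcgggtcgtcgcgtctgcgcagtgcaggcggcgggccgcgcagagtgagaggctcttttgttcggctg

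The words searched were the E-box CACGTG, which Myc binds, the CCAAT box, and 4 words of the type that E2F factors bind. Of these 4, Suv39h2 held TTCCCGC at bases 106 to 112, a word that 4.6% of the 32851 windows in the RefSeq table hold. Cbx1 held TTCGCGC at bases 172 to 178, which 1.59% of the windows hold. The others were TTGGCGC, in 2.45% of windows, and lastly TTGCCGC, in 1.81%. Cbx5 held CACGTG at bases 115 to 120, a word found in 7.15% of windows, and CCAAT on the opposite strand, found in 37.4%. It held none of the 4 E2F-type words here or in its second window, and other forms of E2F site were not searched. Atrx, Cbx3 and Trim28 also held an E2F-type word, so that 5 of the 9 genes did in at least 1 window, as did 2936 of all 27025 genes in the table (10.9%). Ehmt2 had CACGTG in both of its windows, and Ehmt1 held none of the 6 words. None of the words overlapped in the 3 windows printed. A word in a window is a description and shows no binding.

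Suv39h2 and Cbx5 fell in ADR+4-OHT cells relative to untreated cells, by 2.29-fold and 1.73-fold. Cbx1 and Cbx3, the other HP1 genes, lay lower in all 3 lymphomas by about 0.5 log2 units without passing the test. Of the 9 genes 2 fell and none rose, where 2.94% of all 11897 genes tested were called, 2.05% as lower and 0.891% as higher (limma, Benjamini-Hochberg adjusted p under 0.05 over all genes). In 6 of the 9 (Suv39h2, the 3 HP1 genes, Ehmt1 and Ehmt2) every treated array lay below every untreated array, as in 15.8% of all genes. The median difference of the 9 was -0.32, against 0.00 for all genes tested, and 8 of the 9 differences were below 0, as were 49.7% of all.

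Suv39h2 (chromosome 2, 3455815 to 3474986 on GRCm38.p6), the enzyme most alike to the deleted one, had values of 6.83, 6.27 and 5.76 in ADR+4-OHT cells of 4146, 4936 and 5043, against 7.37, 7.52 and 7.57 in untreated cells. The groups did not overlap, and the treated arrays were far more spread (SD 0.53) than the untreated ones (SD 0.10). The difference was -1.20 (SE 0.25, adjusted p = 0.0303, n = 3 each, limma). Within the lymphomas it was -0.54 in 4146, -1.25 in 4936 and -1.80 in 5043. Omitting the 4 arrays with deviant Xist gave Suv39h2 a difference of -1.51 (adjusted p = 0.00964), with 2 arrays left in the treated group.

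Cbx5 (chromosome 15, 103191546 to 103239904), the gene of HP1 alpha, had values of 9.41, 9.01 and 8.83 in ADR+4-OHT cells, against 9.85, 9.80 and 9.96 in untreated cells, in the same order of lymphomas. Again every treated array was lower, and 5043 moved most. The difference was -0.79 (SE 0.17, adjusted p = 0.0356, limma), and within the lymphomas it was -0.44, -0.80 and -1.13. Without the same 4 arrays it was -0.98 (adjusted p = 0.0125).

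The Suv39h2 and Cbx5 calls depended on single arrays. Without any 1 of the untreated arrays of 4146, 4936 and 5043 or of the ADR+4-OHT arrays of 4936 and 5043, neither gene passed: Suv39h2 had differences of -1.27 to -0.90 with adjusted p values of 0.063 to 0.122, and Cbx5 differences of -0.83 to -0.66 with adjusted p values of 0.0753 to 0.153. Cbx5 also missed the threshold without the arrays of 4146 from the ADR 5 d, big outgrowth or small outgrowth groups, at adjusted p values of 0.0528 to 0.0573. Without 4146, 4936 or 5043 neither gene passed: the differences were -1.53, -1.17 and -0.90 for Suv39h2 (adjusted p = 0.0764, 0.178 and 0.294) and -0.96, -0.78 and -0.62 for Cbx5 (adjusted p = 0.111, 0.179 and 0.318). With 2 lymphomas left, limma called 0, 6 and 0 genes of all those tested. With values averaged over the probe sets of each gene, Suv39h2 had -0.78 (adjusted p = 0.0735) and Cbx5 -0.50 (adjusted p = 0.153).

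Cbx1 (chromosome 11, 96788680 to 96808982), the gene of HP1 beta, had 10.47, 10.11 and 9.99 in ADR+4-OHT cells, against 10.78, 10.75 and 10.64 in untreated cells. The 3 treated values lay below all untreated ones, but the difference of -0.53 (SE 0.17, adjusted p = 0.108, limma) did not pass. Cbx3, for HP1 gamma, had 5.07, 5.33 and 5.25, against 5.83, 5.61 and 5.67 in untreated cells. These groups did not overlap either, and the difference of -0.49 (SE 0.14, adjusted p = 0.0907) did not pass. Cbx1 passed without the 4 arrays with deviant Xist (-0.69, adjusted p = 0.0477), and Cbx3 passed in the fit without lymphoma as a block (adjusted p = 0.0463). The Cbx3 probe set (chromosome 6, 51470154 to 51483704) is the only one of that symbol alone, and it is dim, with a mean of 5.48. Another 4 probe sets annotated to Cbx3 also carry the symbol of the pseudogene Cbx3-ps5 and were not used for it.

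**Figure D1:**
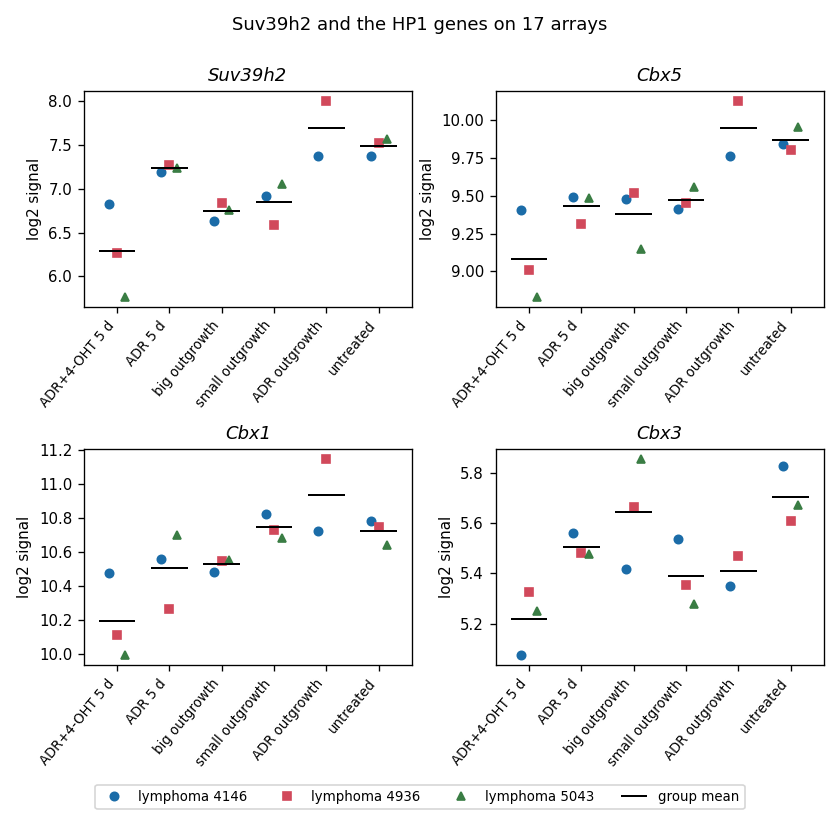
Log2 signal (vertical axes, which do not start at 0) of Suv39h2, Cbx5, Cbx1 and Cbx3 in the 6 groups. Points are the 17 arrays by lymphoma and bars are group means. The lowest Suv39h2 mean is that of ADR+4-OHT cells (6.29), and the highest single value is the ADR outgrowth of 4936 (8.01).

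Cell division genes lay lower in the same cultures and in the same order of lymphomas. Of 17 cell division genes tested, 5 fell and 0 rose in ADR+4-OHT cells compared with untreated cells, with a median of -1.02. The 5 were Mki67, Top2a, Ccna2, Aurkb and Tk1. The median of the 17 was -0.35 within 4146, -1.12 within 4936 and -1.87 within 5043, beside the Suv39h2 differences of -0.54, -1.25 and -1.80. Of 7 macrophage markers tested, Lyz2 alone was called higher (5.87, SE 1.15, adjusted p = 0.0272), and the log2 summed level of 10 such genes ran from 10.14 to 12.95 in ADR+4-OHT cells, against 8.38 to 8.62 in untreated cells, with C1qa, C1qb and C1qc below 4.86 on all 17 arrays. The part of cell division and of macrophage markers in the Suv39h2 and Cbx5 differences was not tested. Over the 17 arrays, with the mean of each lymphoma removed, the Pearson correlation with the median of the 17 cell division genes was 0.956 for Suv39h2, 0.894 for Cbx5, 0.765 for Cbx1 and 0.663 for Trim28. For the other 5 members it lay between -0.101 (Atrx) and 0.480 (Cbx3). Over the other 11880 genes tested the median was -0.007, and 5% of them lay above 0.642. Without ADR+4-OHT 5 d of 4936 and 5043, which lay farthest from the median of the cell division genes, it was 0.917 for Suv39h2, 0.834 for Cbx5, 0.598 for Trim28, 0.526 for Cbx1, 0.310 for Cbx3, 0.271 for Setdb1, -0.002 for Ehmt1, -0.348 for Ehmt2 and -0.526 for Atrx. The values of Cbx1, Cbx3, Ehmt1 (0.160 on all 17 arrays), Ehmt2 and Atrx thus rested in part on those 2 arrays. These correlations describe arrays that share lymphomas, treatments and scaling.

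**Figure D2:**
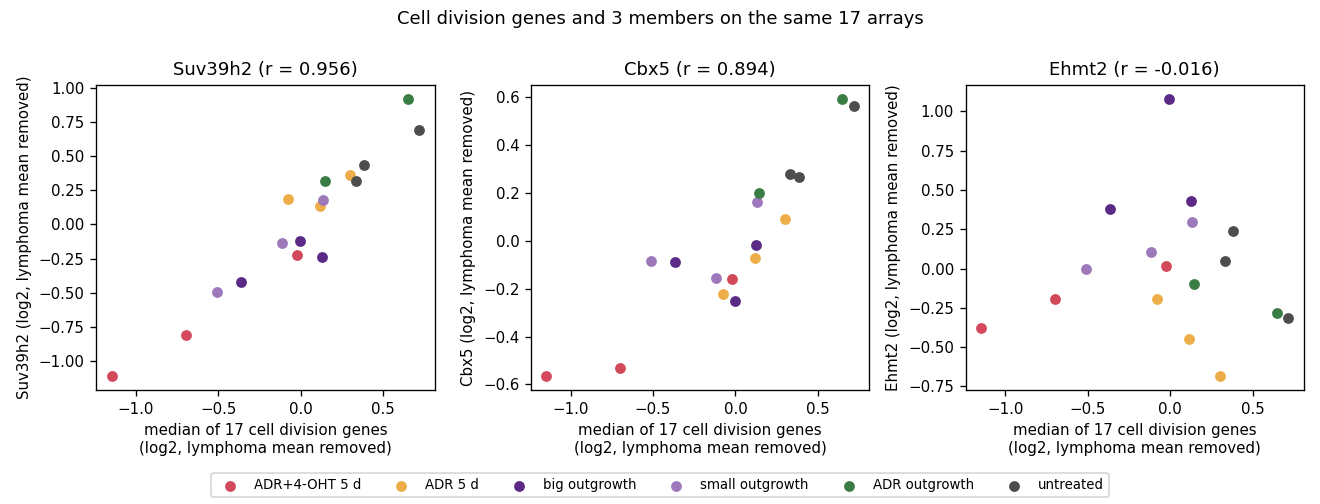
Suv39h2, Cbx5 and Ehmt2 (vertical axes) against the median of 17 cell division genes (horizontal axes), in log2 units with the mean of each lymphoma removed. Each point is 1 of 17 arrays, coloured by group. Suv39h2 and Cbx5 follow the cell division genes (r = 0.956 and 0.894) and Ehmt2 does not (r = -0.016, or -0.348 without the 2 arrays farthest from the median of the cell division genes).

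The genes whose pattern over the 17 arrays was most like that of Suv39h2 were Cenph, a centromere gene (r = 0.969), Rrm1, a subunit of ribonucleotide reductase (r = 0.960), and Tk1, a thymidine kinase (r = 0.958). Those most like Cbx5 were Brip1, a DNA helicase gene (r = 0.961), Mcm8 (r = 0.937) and Mdm1 (r = 0.934). Cbx1 was most like Npm1 (r = 0.913), Rad21, a cohesin subunit (r = 0.910), and Nmral1 (r = 0.909). Trim28 was most like Rbm14 (r = 0.936), Cnot9 (r = 0.933) and U2af1, a splicing factor gene (r = 0.928). Ehmt2 was most like R3hdm2 (r = 0.943), Wbp2 (r = 0.941) and E2f5 (r = 0.885). The 3 nearest genes were Zfp574, Med23 and Crkl for Setdb1 (r from 0.856 to 0.900), Gm34006, Pank4 and Spg7 for Ehmt1 (0.858 to 0.871), Ccdc167, Cxxc1 and Ppp5c for Cbx3 (0.845 to 0.869) and Pank3, Zfp691 and Yod1 for Atrx (0.792 to 0.840). All these genes were picked as the highest among every non-member gene tested, which by itself favours high values. No background was computed for them, and none was tested.

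Among the members themselves, Suv39h2 correlated with Cbx5 at 0.901, with Cbx1 at 0.772 and with Trim28 at 0.700, and Cbx5 with Cbx1 at 0.831. On the 14 arrays without the 3 that stood apart these were 0.947, 0.849, 0.697 and 0.852. Ehmt1 and Ehmt2, whose proteins form a heterodimer, correlated at 0.423, and Setdb1 with Trim28 at 0.549. The lowest value was that of Setdb1 with Ehmt1, at -0.523.

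In cells given ADR alone for 5 days, set against untreated cells, Ehmt1, Ehmt2 and Cbx5 had the largest differences among the 9, all below 0 in every lymphoma on the probe sets used. None passed, in a comparison in which limma called 0% of genes in either direction, 1348 had an unadjusted p under 0.05 and the smallest adjusted p of any gene was 0.182. In 5 of the 9 every ADR array lay below every untreated array, as in 10.4% of all genes. Ehmt1, the gene of GLP, had 9.37, 9.41 and 9.38 in ADR cells of 4146, 4936 and 5043, against 9.79, 9.89 and 9.75 in untreated cells. The groups were tight (SD 0.02 and 0.08) and did not overlap, on values from which level differences between lymphomas had been taken out. The difference was -0.42 (SE 0.11, unadjusted p = 0.00259, adjusted p = 0.291, limma), from -0.49 to -0.37 within the lymphomas. In ADR+4-OHT cells Ehmt1 had 9.47, 9.44 and 9.55, a difference of -0.32 from untreated cells (adjusted p = 0.136).

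Ehmt2, the gene of G9a, had 8.70, 9.08 and 8.80 in ADR cells, against 9.19, 9.51 and 9.17 in untreated cells. It was lower in each lymphoma, by values close to each other. The difference was -0.43 (SE 0.23, adjusted p = 0.479), and a second, dim probe set had -0.14. Cbx5 had 9.50, 9.31 and 9.49 in ADR cells, a difference of -0.44 (SE 0.17, adjusted p = 0.389) from untreated cells. The other 4 Cbx5 probe sets did not share it: from the brightest to the dimmest they had 0.12, 0.01, 0.28 and -0.15. Suv39h2 had 7.19, 7.27 and 7.24, all just below the untreated arrays, with -0.25 (SE 0.25, adjusted p = 0.697, 95% interval -0.80 to 0.29), and its other 2 probe sets had 0.08 and -0.18. Cbx3 lay wholly below untreated cells too, with -0.20 (SE 0.14, adjusted p = 0.596). Cbx1, Trim28, Setdb1 and Atrx overlapped with them on the probe sets used. The dimmest Atrx probe set lay wholly above untreated cells, with 0.90 (SE 0.21, limma adjusted p = 0.271). All other Atrx probe sets had -0.34 to -0.01. The median over the cell division list was -0.35, with 0 of 17 called. Macrophage markers had median differences of 0.97, 4.16 and 1.49 within 4146, 4936 and 5043, and fibroblast markers of 2.68, 4.36 and 1.74. The difference between the 3′ and 5′ control probe sets of Actb, a sign of RNA quality, was 1.08, 0.56 and 1.17 in ADR cells, against 1.39, 1.65 and 1.41 in untreated cells, lower in all 3 lymphomas. For Gapdh the same difference was 0.40, 0.50 and 0.37 in ADR cells, against 0.51, 0.48 and 0.54 in untreated cells, not lower in 4936. The part of these measures in the differences was not tested. Without the 3 arrays that stood apart, the ADR array of 4936 among them, the differences were -0.43 for Ehmt1, -0.51 for Ehmt2 and -0.36 for Cbx5 (adjusted p = 0.94 for each).

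Adding 4-OHT to 5 days of ADR is the comparison that the switchable fusion was built for. Limma called 0% of genes here after adjustment. On the probe sets used, Suv39h2 was the 1 of the 9 with an unadjusted p under 0.05, where 12.5% of all genes had one. Its values, 6.83, 6.27 and 5.76 in ADR+4-OHT cells, against 7.19, 7.27 and 7.24 in ADR cells, did not overlap. The difference of -0.95 (SE 0.25, unadjusted p = 0.00271, adjusted p = 0.22, 95% interval -1.49 to -0.40) was below 0 in all 3 lymphomas, smallest in 4146 (-0.36) and largest in 5043 (-1.48). The other Suv39h2 probe sets had -0.74 (adjusted p = 0.225) and -0.29 (adjusted p = 0.665). The median of the cell division genes was -0.14, -0.50 and -1.38 within 4146, 4936 and 5043 in the same comparison, and its part was not tested. Without the 4 arrays with deviant Xist the difference of Suv39h2 was -1.30 (adjusted p = 0.0838). That fit left 5043, which had the largest difference, as the only lymphoma with arrays in both groups. With arrays weighted by their fit Suv39h2 passed (-1.11, adjusted p = 0.0129), as did Cbx5 (-0.50, adjusted p = 0.0471).

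On the probe sets used, the HP1 genes lay lower with 4-OHT than with ADR alone in every lymphoma. The differences were -0.35 for Cbx5 (SE 0.17, adjusted p = 0.424), -0.31 for Cbx1 (SE 0.17, adjusted p = 0.457) and -0.29 for Cbx3 (SE 0.14, adjusted p = 0.43). The other Cbx5 probe sets, from the brightest to the dimmest, had -0.63, -0.39, -1.01 and 0.06. Those at -0.63 and -1.01 did not overlap between groups (limma, unadjusted p = 0.0198 and 0.00215, adjusted p = 0.3 and 0.206). Ehmt1 lay higher on all 3 arrays, with a small difference of 0.10 (SE 0.11, adjusted p = 0.736). Trim28 was lower in all 3 lymphomas, with -0.38 (SE 0.28, adjusted p = 0.605). Ehmt2 had 0.26 (SE 0.23, adjusted p = 0.67), Setdb1 -0.13 (SE 0.20, adjusted p = 0.816) and Atrx -0.05 (SE 0.24, adjusted p = 0.946), with signs that differed between lymphomas. The other Atrx probe sets had -0.77 to -0.01, and those at -0.77 and -0.64 did not overlap between groups (limma, adjusted p = 0.226 and 0.604). On the probe sets used, the groups did not overlap in 2 genes lower with 4-OHT, as in 13.5% of all genes, and in 1 higher, as in 9.01%. The same Actb difference was 1.51, 1.17 and 1.28 with 4-OHT, against 1.08, 0.56 and 1.17 with ADR alone. That of Gapdh was 0.57, 0.42 and 0.53, against 0.40, 0.50 and 0.37, and the part of neither was tested. Fibroblast markers, with 0 of 5 called, had median differences of -2.20, -2.65 and -1.38 within 4146, 4936 and 5043, and their part was not tested either.

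**Figure D3:**
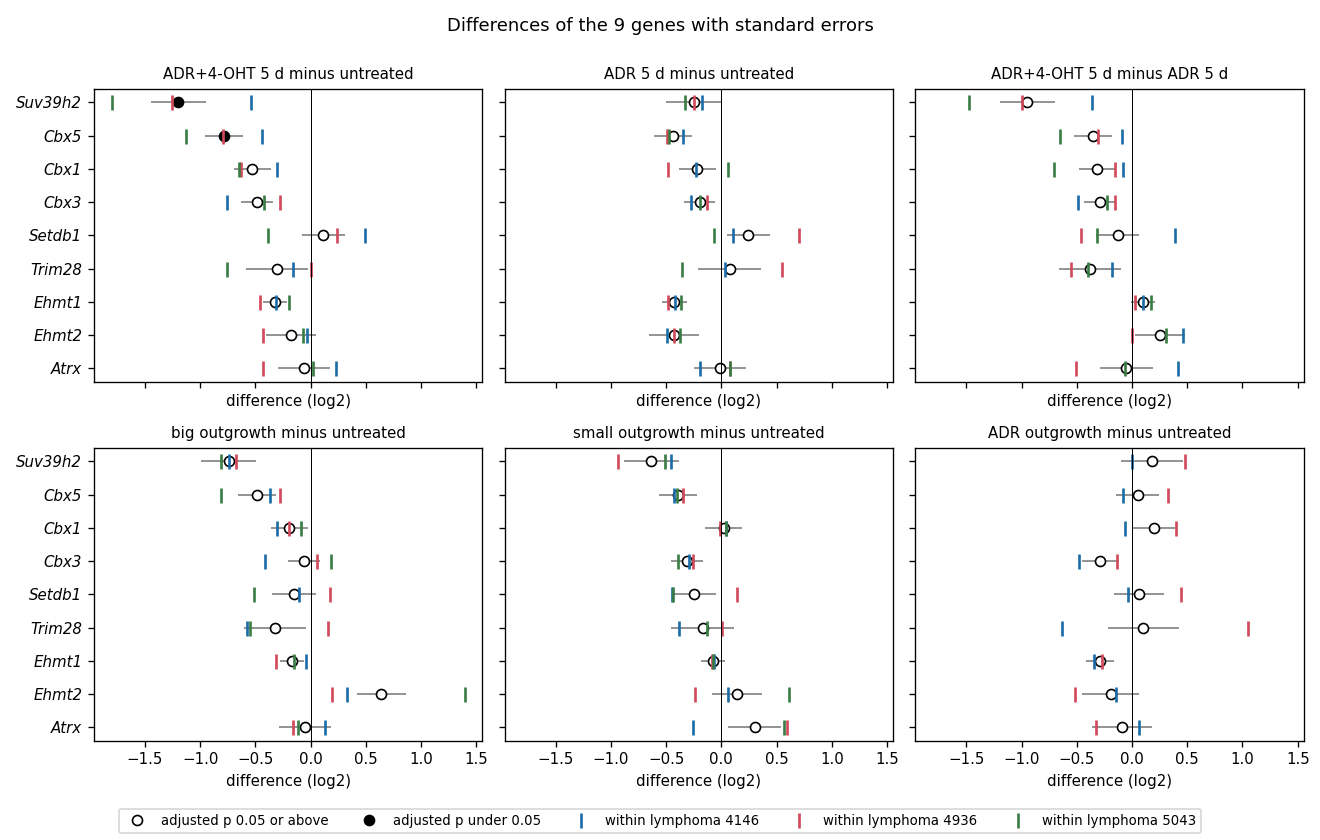
Differences in log2 units (horizontal axes, first-named group minus the second) of the 9 genes in 6 comparisons. Circles with bars are limma differences with standard errors, filled where the adjusted p is under 0.05, and ticks are the differences within each lymphoma. The 2 filled circles are Suv39h2 (-1.20) and Cbx5 (-0.79) in ADR+4-OHT cells against untreated cells.

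In the outgrowths after ADR with 4-OHT, 14 days after both compounds were removed, Suv39h2 and Cbx5 still lay below untreated cells on every array. In the ADR outgrowth, with 2 arrays, Suv39h2 overlapped with untreated cells, and Cbx5 lay below them in 4146 (9.77) but not in 4936 (10.13). Suv39h2 had 6.63, 6.84 and 6.75 in big cells and 6.92, 6.59 and 7.06 in small cells, against 7.37, 7.52 and 7.57 in untreated cells. The differences were -0.74 for big cells (SE 0.25, adjusted p = 0.188) and -0.63 for small cells (SE 0.25, adjusted p = 0.565), and neither passed. Limma called 0.412% of genes for big cells and 0% for small cells against untreated cells. Cbx5 had 9.48, 9.52 and 9.14 in big cells and 9.41, 9.45 and 9.56 in small cells, against 9.85, 9.80 and 9.96 in untreated cells, with differences of -0.49 (SE 0.17, adjusted p = 0.207) and -0.40 (SE 0.17, adjusted p = 0.583). The other probe sets differed in size and in part in sign. Those of Suv39h2 had -0.51 and -0.35 in big cells and -0.24 and 0.11 in small cells, and the other 4 of Cbx5 had -0.73 to 0.02 in big cells and -0.88 to -0.21 in small cells. For small cells 3 of the 9 genes (Suv39h2, Cbx5 and Cbx3) lay wholly below untreated cells, as in 9.2% of all genes, and for big cells 3 (Suv39h2, Cbx5 and Cbx1) lay wholly below, as in 16.7%, and 1 wholly above, as in 13.1%. The cell division genes had medians of -0.53 in big and -0.66 in small cells against untreated cells, with 0 of 17 called in each. Fibroblast markers had medians of 3.92 in big cells, with 3 of 5 called higher, and 0.69 in small cells, with 0 of 5 called. The log2 summed level of the macrophage markers ran from 9.34 to 10.30 in big cells and from 8.51 to 9.35 in small cells, against 8.38 to 8.62 in untreated cells, with 0 of 7 called in each. The part of these markers and of cell division was not tested. Without the 3 arrays that stood apart, which include the big and small cells of 5043, Suv39h2 had -0.83 in big and -0.81 in small cells (adjusted p = 0.395 and 0.645), and Cbx5 -0.40 and -0.47 (adjusted p = 0.51 and 0.656).

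The ADR outgrowth of 4146 and 4936 had 7.38 and 8.01 for Suv39h2 and 9.77 and 10.13 for Cbx5. The arrays overlapped with untreated ones for both genes, with differences of 0.18 (SE 0.28, adjusted p = 0.999) and 0.05 (SE 0.20, adjusted p = 1). For the ADR outgrowth limma called 0% of genes, and 534 had an unadjusted p under 0.05. In 3 of the 9 members (Cbx3, Ehmt1 and Ehmt2) both outgrowth arrays lay below every untreated array, as in 10.9% of all genes. Ehmt1, at 9.45 and 9.62 in the ADR outgrowth, had -0.29 (SE 0.13, limma adjusted p = 0.999). B-cell markers had medians of -1.18 in 4146 and -0.52 in 4936 against untreated cells, and macrophage markers 1.86 and 0.14, with 0 of 7 called in each list, and their part was not tested.

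Set directly against the ADR outgrowth, the small cells had differences of -0.81 for Suv39h2 (SE 0.28, unadjusted p = 0.0148, adjusted p = 0.297) and -0.45 for Cbx5 (SE 0.20, unadjusted p = 0.0412, adjusted p = 0.356). Both genes were lower in both lymphomas, with differences of -0.46 and -1.42 for Suv39h2 and -0.35 and -0.68 for Cbx5 in 4146 and 4936. Without the 3 arrays that stood apart they were -0.94 for Suv39h2 and -0.52 for Cbx5 (adjusted p = 0.266 and 0.308). The other Suv39h2 probe sets had -0.65 and -0.20, and the other 4 of Cbx5 had -0.79, -1.57, -0.72 and 0.08. The groups did not overlap in 3 members lower in small cells, as in 17.2% of all genes, and in 2 higher, as in 15.8%, and limma called 0% of genes. Small cells were sorted and the ADR outgrowth is not labelled as sorted, so sorting cannot be told apart from the 4-OHT history. Cell division genes had a median of -0.82 in this comparison, at -0.26 within 4146 and -1.19 within 4936. Within 4146 and 4936, fibroblast markers had medians of 2.0 and 0.82, macrophage markers of -1.23 and -0.13 and B-cell markers of 1.70 and 0.09, with none called. The same Actb difference was 1.53 and 1.81 in small cells, against 1.33 and 1.26 in the ADR outgrowth. That of Gapdh was 0.42 and 0.67, against 0.34 and 0.44. The part of these measures was not tested.

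The order of the Suv39h2 group means, low to high, was ADR+4-OHT 5 d, big outgrowth, small outgrowth, ADR 5 d, untreated and ADR outgrowth. Neighbours overlapped except at 2 steps, between small outgrowth and ADR 5 d and between ADR 5 d and untreated. For Cbx5 the order was ADR+4-OHT 5 d, big outgrowth, ADR 5 d, small outgrowth, untreated and ADR outgrowth, and the step between small outgrowth and untreated was the 1 without overlap. Cbx1 was lowest in ADR+4-OHT cells (mean 10.19) and highest in the ADR outgrowth (10.94), with a gap between big outgrowth and untreated cells. Cbx3 was lowest in ADR+4-OHT cells (5.22) and highest in untreated cells (5.70). Ehmt1 ran from 9.39 in ADR cells to 9.81 in untreated cells, and Ehmt2 from 8.86 in ADR cells to 9.93 in big outgrowth cells. For Setdb1, Trim28 and Atrx every neighbour in the order overlapped.

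Ehmt2 was, on the probe sets used, the 1 member whose big outgrowth arrays all lay above the untreated ones, as in 13.1% of all genes. It had 9.52, 9.70 and 10.57 in big cells, against 9.25, 9.27 and 9.79 in small cells and 9.19, 9.51 and 9.17 in untreated cells. The difference from untreated cells was 0.64 (SE 0.23, unadjusted p = 0.0155, adjusted p = 0.21). Against small cells it was 0.50 (SE 0.23, adjusted p = 0.473), higher in 3 of 3 lymphomas, where limma called 0% of genes. The highest value came from the big-cell array of 5043, which stood apart, and without the 3 such arrays the difference from untreated cells was 0.30 (adjusted p = 0.52), and 0.34 (adjusted p = 0.63) without that array alone. A second, dim Ehmt2 probe set gave 0.02. Of 5 fibroblast markers tested, 3 were called higher in big than in untreated cells, and the log2 summed level of the 9 with a probe set ran from 11.53 to 13.43 in big cells, against 7.52 to 8.53 in untreated cells. Their part in the Ehmt2 difference was not tested. The fibroblast markers Pdgfrb and Postn lay under 4.86 on all 17 arrays, as did the macrophage markers C1qa, C1qb and C1qc.

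Cbx1 was, on the probe sets used, the 1 member lower in big than in small cells without overlap, as 12.8% of all genes were. It had 10.48, 10.55 and 10.56 in big cells, against 10.83, 10.73 and 10.68 in small cells, with a difference of -0.22 (SE 0.17, adjusted p = 0.726), or -0.26 (adjusted p = 0.771) without the 3 arrays that stood apart. The second abundant Cbx1 probe set had -0.03. Atrx probe sets at mean levels of 7.23 and 4.80 were also lower without overlap, with -0.68 and -0.61 (limma, adjusted p = 0.161 and 0.262). The rest of the Atrx probe sets had -0.53 to 0.06 and overlapped. In the same comparison fibroblast markers had medians of 1.85, 4.80 and 2.84 within 4146, 4936 and 5043, with 0 of 5 called, and macrophage markers of 1.5, 0.45 and 2.27, with 0 of 7 called, and their part was not tested. Cbx1 had 10.56, 10.26 and 10.70 in ADR cells and 10.72 and 11.15 in the ADR outgrowth of 4146 and 4936. In small cells Cbx1 overlapped with untreated cells, with a difference of 0.02 (SE 0.17, 95% interval -0.34 to 0.39). Cbx3 had 5.56, 5.48 and 5.48 in ADR cells, 5.42, 5.66 and 5.85 in big cells, 5.54, 5.35 and 5.28 in small cells and 5.35 and 5.47 in the ADR outgrowth. On this dim probe set it was lower than in untreated cells on every small-cell array, with -0.31 (SE 0.14, adjusted p = 0.601). In big cells it overlapped with untreated cells, with -0.06 (SE 0.14). The bright probe sets shared with Cbx3-ps5 differed there: they lay wholly below untreated cells in big cells, by -0.46, -0.43 and -0.39.

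Setdb1, Trim28 and Atrx passed in none of the 8 comparisons, with adjusted p values from 0.538 to 1. Setdb1 had 9.42, 8.94 and 8.91 in ADR+4-OHT cells, against 8.93, 8.71 and 9.30 in untreated cells. It was higher in 2 lymphomas and lower in 5043, with a difference of 0.12 (SE 0.20, 95% interval -0.32 to 0.55). Trim28 ran from 10.79 to 11.31 in ADR+4-OHT cells and from 11.11 to 11.55 in untreated cells, with -0.30 (SE 0.28, 95% interval -0.92 to 0.31). Its 2 ADR outgrowth arrays lay far apart, at 10.83 and 12.17. Atrx ran from 9.88 to 10.43 in ADR+4-OHT cells and from 10.20 to 10.31 in untreated cells, with -0.06 (SE 0.24, 95% interval -0.58 to 0.46). In small outgrowth cells Atrx had 9.94, 10.91 and 10.78, against 10.20, 10.31 and 10.21 in untreated cells, high in 4936 and 5043 and low in 4146, with 0.30 (SE 0.24, adjusted p = 0.743). The other Atrx probe sets did not share it: from the brightest to the dimmest they had -0.36, -0.35, -0.51, 0.19, -0.33 and 0.28. In big cells the probe set used had -0.05 against untreated cells. The others had -0.89, -0.73, -1.03, -0.49, -0.27 and -0.33 there (limma, adjusted p from 0.23 to 0.449).

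**Figure D4:**
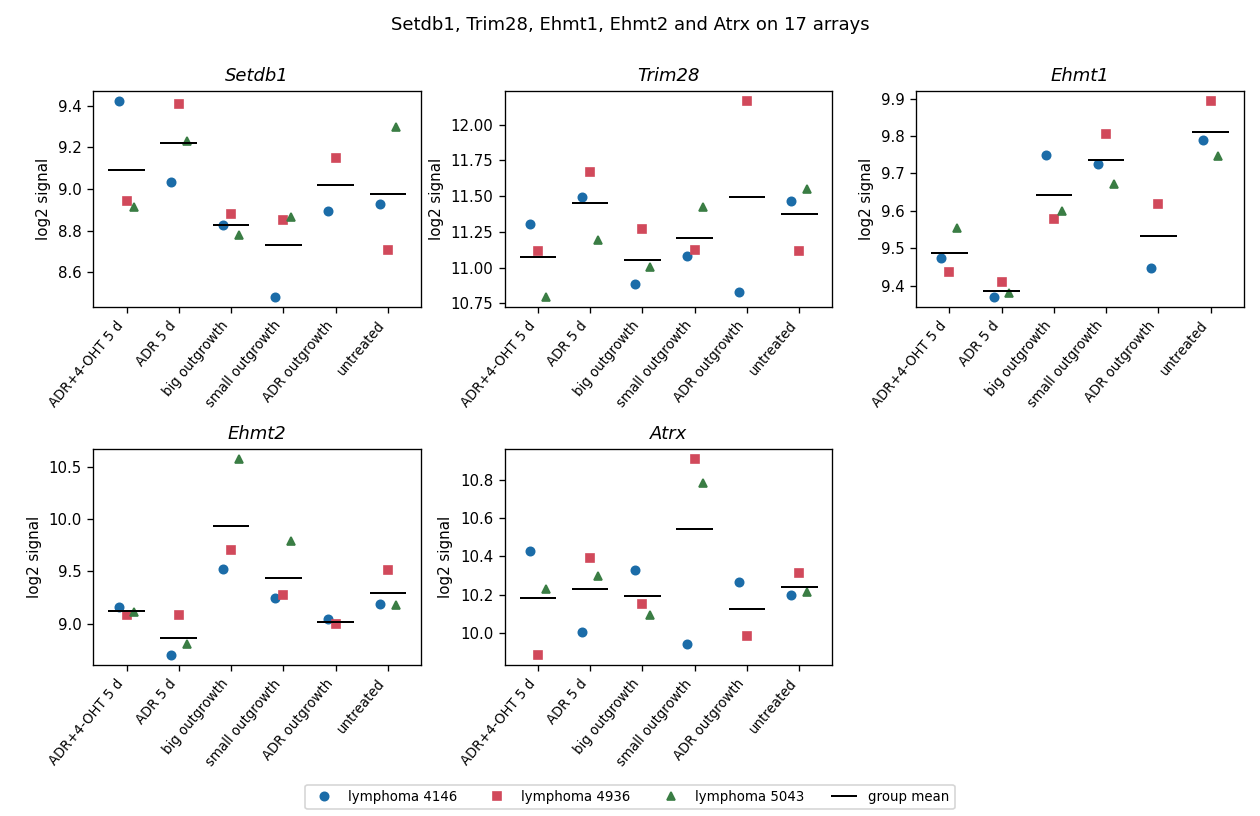
Log2 signal (vertical axes, which do not start at 0) of Setdb1, Trim28, Ehmt1, Ehmt2 and Atrx in the 6 groups. Points are the 17 arrays by lymphoma and bars are group means. Ehmt1 arrays are tight within groups, and the highest Ehmt2 value, 10.57, is the big outgrowth of 5043.

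Other probe sets of the same genes were fitted on their own, 28 in all with those used. A further Setdb1 probe set, with a mean of 4.14, lay under 4.86 on all arrays and was not tested. In ADR+4-OHT against untreated cells it had -0.69, -0.40 and -0.12 within 4146, 4936 and 5043. The other Setdb1 probe sets had 0.12 and 0.59 there. For ADR+4-OHT against untreated cells, 24 of the 28 had differences below 0, and the 2 called were the ones used for Suv39h2 and Cbx5. The other Suv39h2 probe sets had -0.66 (SE 0.20, adjusted p = 0.112) and -0.47 (SE 0.26, adjusted p = 0.363). Of the other 4 Cbx5 probe sets, those at mean levels of 6.92 and 6.44 had -0.51 and -0.73 with no overlap between groups, and those at 6.86 and 4.65 had -0.38 and -0.09 with signs that differed between lymphomas. The second abundant Cbx1 probe set had -0.51 (SE 0.18), close to the -0.53 of the one used, and the 3 dim ones had -0.09 to 0.03. Atrx was the member whose probe sets disagreed most: the one used had -0.06, and the next 3 by level had -0.58, -0.51 and -0.98 (SE 0.36, 0.41 and 0.49). None of its 7 probe sets passed (adjusted p from 0.318 to 0.938).

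**Figure D5:**
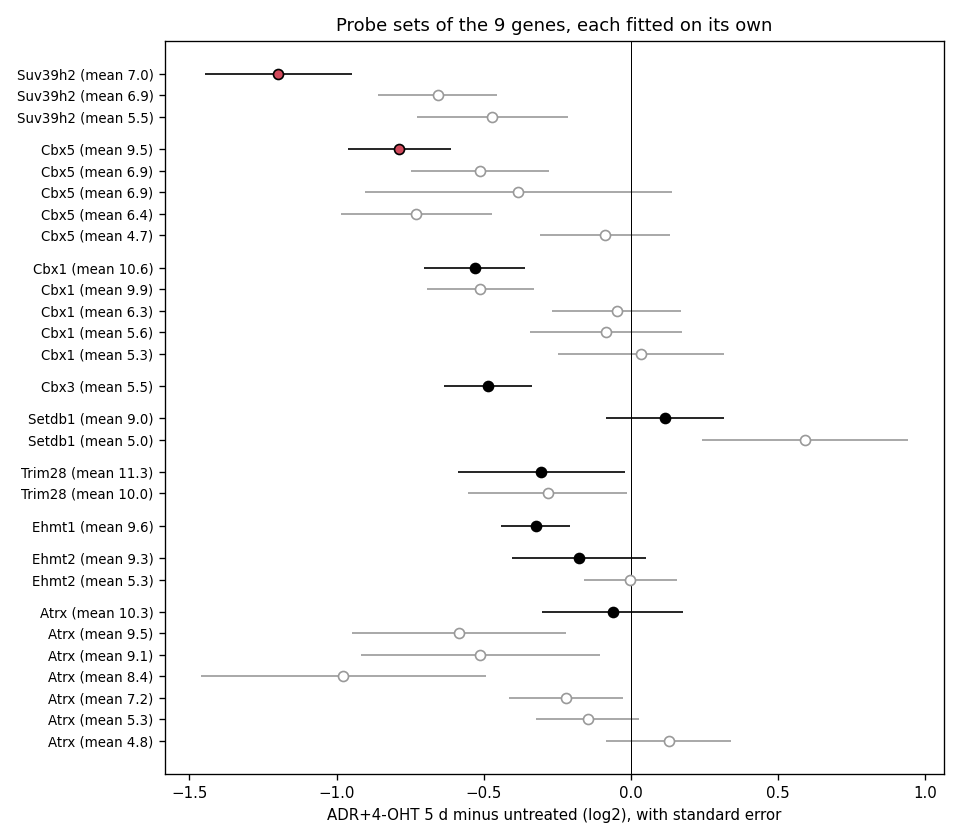
Differences between ADR+4-OHT 5 d and untreated cells (horizontal axis, log2, with standard errors) for 28 probe sets of the 9 genes, labelled with their mean log2 level. Black marks are the probe sets used for the gene, grey ones the others, and red fill an adjusted p under 0.05. The 2 red points are Suv39h2 (-1.20) and Cbx5 (-0.79).

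Of a list of 30 further genes of H3K9 methylation and heterochromatin, 28 had a probe set of a single symbol and were tested, and none was called in any of the 8 comparisons. In ADR+4-OHT cells against untreated cells their median was -0.09. The largest differences there were those of Kmt5b, an H4K20 methyltransferase, at 1.27 (SE 0.42, adjusted p = 0.126), and Dnmt1, the maintenance DNA methyltransferase, at -1.12 (SE 0.30, adjusted p = 0.0709). After ADR alone they were those of Kmt5b, at 0.76 (SE 0.42, adjusted p = 0.502), and Kmt5c, its sister enzyme that acts on HP1-bound chromatin, at -0.72 (SE 0.19, adjusted p = 0.291). For ADR+4-OHT against ADR alone Hells, a remodeller of the DNA methylation machinery, had -0.84 (SE 0.42, adjusted p = 0.428) and Chaf1b, a subunit of the chromatin assembly factor CAF-1, -0.81 (SE 0.25, adjusted p = 0.247). Big outgrowth cells had -0.99 for Zfp644, a G9a partner (SE 0.30, adjusted p = 0.15), and -0.84 for Rif1, which regulates replication timing (SE 0.27, adjusted p = 0.169), against untreated cells. Small outgrowth cells had -0.94 for Uhrf1, which reads H3K9 methylation and recruits Dnmt1 (SE 0.37, adjusted p = 0.565), and -0.63 for Rif1 (SE 0.27, adjusted p = 0.583). The ADR outgrowth had 0.51 for Tasor (SE 0.19) and 0.51 for Pphln1 (SE 0.31), both of the HUSH silencing complex, against untreated cells (adjusted p = 0.999 for each). Big cells had -0.79 for Zfp644 (SE 0.30, adjusted p = 0.364) and 0.46 for Uhrf1 (SE 0.37, adjusted p = 0.745) against small cells. Small cells had -1.13 for Uhrf1 (SE 0.42, adjusted p = 0.306) and -1.03 for Rif1 (SE 0.30, adjusted p = 0.269) against the ADR outgrowth. Uhrf1 was also counted among the cell division genes. The other H3K9 methyltransferase genes on the list, Setdb2, Prdm2, Mecom and Prdm16, had a median of -0.07 in ADR+4-OHT against untreated cells, with 0 of 4 called.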

How the data were processed

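Affymetrix arrays measured biotin-labelled cRNA made from total RNA of 18 cultures, per the labels' protocols. The authors deposited log2 signal values per probe set, made with RMA and Partek per the submitters' processing notes, with no version or order given. In all 45101 probe sets the medians of the 3 lymphomas were equal to within 1e-06: differences in level between lymphomas had been taken out of the deposited values, which no label mentions. Of 18 columns 17 held values. There is no sequencing depth, so precision rests on the number of arrays: the median SE for 3 against 3 arrays was 0.223.

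GEO's platform annotation gave 34958 probe sets 1 symbol and 932 several, and 9211 were not listed. The brightest probe set on average stood for each of 18194 genes, and 11897 genes with at least 4.86 (the median of all values) on at least 3 arrays were tested. Limma 3.58.1 in R 4.3.3 fitted 6 groups with lymphoma as an additive block, because each lymphoma received both treatments, with 9 residual and 2.53 prior degrees of freedom. P-values were adjusted by Benjamini-Hochberg over all genes in each of 8 comparisons, with a threshold of 0.05. The pairing comes from the lymphoma numbers in the labels. A correlation of deviations between arrays cannot check it here, since the lymphoma medians had been made equal.

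All 9 members were named in each comparison. Added to them were the 3 non-member genes most correlated with each, and the context genes with the largest change. Members, lists and tests were chosen with earlier results of these data known. The method was tested on simulated data of the same design. The comparisons share arrays, among them the untreated ones. Alternatives were no replicate block, no filter, the mean over probe sets, each probe set on its own, quantile normalisation, a variance trend with robust fitting and leaving out each lymphoma. Those chosen after seeing the data left out 3 or 4 arrays that stood apart, weighted the arrays, or left out each array.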

Additional observations from a re-analysis of the deposited data

How the results depend on the processing

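In ADR+4-OHT against untreated cells limma called 350 genes and 2 of the 9 members, Suv39h2 and Cbx5. With no replicate block (lymphoma left out of the model, which leaves too many degrees of freedom for values whose lymphoma offsets were removed) it called 623 genes and 3 members, Cbx3 being added, and it changed no other member's call. With values averaged over a gene's probe sets it called 212 genes and 0 members, although Suv39h2 and Cbx5 kept their sign. Leaving out the 4 arrays with deviant Xist gave 794 genes and 3 members, Cbx1 being added, and array weights gave 1398 genes and 4 members, Suv39h2 and the 3 HP1 genes. Leaving out 1 lymphoma or 1 array gave 0 to 546 genes and 0 to 2 members. For big outgrowth against untreated cells (49 genes, 0 members) no replicate block gave 112 genes, array weights 1219 genes and 2 members (Suv39h2 and Cbx5), and leaving out 1 lymphoma or 1 array 0 to 280 genes. For ADR+4-OHT against ADR alone (0 genes) no replicate block gave 13, the mean over probe sets 1, array weights 750 with 2 members, and leaving out 1 lymphoma or 1 array 0 to 19. For big against small outgrowth (0 genes) no replicate block gave 30, omitting 3 or 4 arrays 3 and 2, array weights 93, and leaving out 1 lymphoma or 1 array 0 to 25. For ADR alone against untreated cells (0 genes) these were 1 with no replicate block, 15 with array weights and 0 to 3 with 1 lymphoma or array left out. Small outgrowth against untreated cells gave 1 gene with no replicate block, and small against ADR outgrowth 0 to 1 with 1 lymphoma or array left out. The cause of these shifts was not tested. No called member value changed sign in any setting. Among the member differences, 718 of 792 under the 11 other settings kept their side of the threshold, those not called also moving by no more than the SD between replicates, as did 1185 of 1224 with 1 array left out. Of the differences that were not called, 50 changed sign under the other settings and 34 with 1 array left out.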

Other observations

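The 4 probe sets annotated to both Cbx3 and the pseudogene Cbx3-ps5 were outside every test above, because their signal cannot be assigned to either gene. Of these, 3 were bright, with means over the 17 arrays of 12.17, 10.49 and 11.56. In ADR+4-OHT against untreated cells their mean differences within lymphomas were -0.60, -0.83 and -0.69, and the dim one had -0.66. The groups did not overlap on any of the 4, and all 3 lymphomas lay lower on each. Against ADR alone the 3 bright ones had -0.48, -0.72 and -0.62, again with no overlap, and the dim one -0.08 with overlap. For ADR alone against untreated cells the bright ones had -0.12, -0.11 and -0.07, with overlap. The Cbx3 probe set of a single symbol had -0.49 for ADR+4-OHT against untreated cells. In big outgrowth against untreated cells the bright ones had -0.46, -0.43 and -0.39 with no overlap, where the single-symbol probe set had -0.06 with overlap. In the ADR outgrowth against untreated cells they had 0.09, 0.25 and 0.14 with overlap, where the single-symbol probe set had -0.29 with no overlap.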
